A study of Bos taurus with 24 samples.

Results

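The miR-26 family is described here through the rows named bta-miR-26a, bta-miR-26b and bta-miR-26c, which were found by these exact names in both deposited tables, 1 for the Holstein (HOLS) and 1 for the Montbéliarde (MONT) cows. They are 3 of the 796 miRNAs listed. All 3 had counts in each of the 22 libraries and passed the filter on low counts in every comparison. The libraries were made from mammary gland biopsies of lactating cows in mid lactation, each taken from the same cow before (CONT, day 0) and after (REST, day 6) a period of feed restriction. The groups were HOLS CONT and HOLS REST, with 5 cows each, and MONT CONT and MONT REST, with 6 cows each, and no group received another treatment. At REST the allowance was 60% of the net energy requirement per the labels, while the paper's methods give a lower share, and at CONT the cows were not restricted. The 24 samples of the labels include both biopsies of a further HOLS cow, which were not analysed here. A period and the order of the biopsies cannot be told apart in this design, since every cow was sampled first at CONT.

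MicroRNAs are short RNAs that guide Argonaute proteins to complementary sites in messenger RNAs and lower their translation or stability. The miRNAs miR-26a and miR-26b share a seed, the stretch near the 5′ end that pairs with the target. They are thus held to act on largely the same messenger RNAs, among them that of the chromatin enzyme EZH2. In vertebrates their genes lie within introns of genes for small phosphatases of the CTDSP group, which act on the tail of RNA polymerase II. In ruminant mammary epithelial cells miR-26a and miR-26b have been linked to triacylglycerol synthesis. Whether miR-26c carries this seed was not checked here, since no mature sequence was at hand.

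The gene models place the family at few loci. In the RefSeq table of the assembly ARS-UCD2.0, which is not the assembly used for the counts, MIR26A-1 lay within CTDSPL, MIR26A-2 within CTDSP2 and MIR26B within CTDSP1. MIR26C, which has the older name bta-mir-3603, had the same interval as MIR26A-1. The table gives no strand, so it does not say whether MIR26C is read from the same strand as MIR26A-1. Mature miR-26a is thus listed with 2 loci, and miR-26b and miR-26c with 1 each.

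Total counts per library lay between 6087865 and 18913916, so the family was deeply counted. The lowest count was 287219 for miR-26a, 39155 for miR-26b and 143609 for miR-26c, which gives a relative counting error of at most 0.187%, 0.505% and 0.264%. Levels are given as normalized counts, obtained by dividing each library's counts by its size factor from DESeq2, estimated jointly over the 22 libraries. In 10 of the 11 cows the CONT and REST libraries deviated together from the means of their groups, with r across miRNAs from 0.12 to 0.69, and in MONT cow 9615 they did not (r = -0.20). Where this cow decides a value of a member, the value without it is given too. Markers of epithelium were looked up in these libraries, which cannot tell the mammary gland from another tissue with epithelium. Of the 10 miRNAs of that list 9 were listed and tested, none of the 9 was at 0 in a group, and miR-141 and miR-200c were the highest with means of 264509 and 39358 normalized counts.

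The rows of miR-26a and miR-26c held the same measurement on different scales. In each of the 22 libraries the count of miR-26a was close to 2 times that of miR-26c, and the remainder after taking off 2 times the miR-26c count was 1 to 15 counts, with a median of 6. This remainder was at most 0.00198% of the miR-26a count. The log2 ratio of both rows had an SD of 5.87e-06 across the libraries, whereas the log2 ratio of miR-26b to miR-26a had an SD of 0.47, and no other row with at least 1000 counts in every library came below 0.26. Between REST and CONT the mean log2 ratio of miR-26c to miR-26a differed by 3.01e-06 in HOLS and by -1.60e-06 in MONT, which is given as a description, since such values hold nothing but these remainders. The changes and tests of miR-26c are no second observation of miR-26a, and the family gave 2 measurements per library, that of miR-26a with miR-26c and that of miR-26b.

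**Figure D1:**
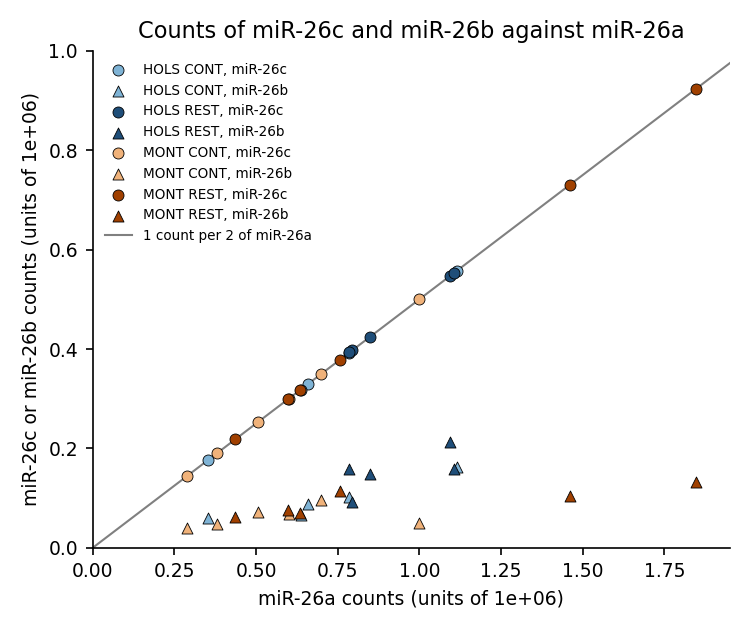
Counts of miR-26c (circles) and miR-26b (triangles), in units of 1e+06 counts, against counts of miR-26a in the 22 libraries, coloured by group. The circles lie on the grey line of 1 count of miR-26c per 2 of miR-26a, and the triangles are spread below it, at 4.97 to 19.8 counts of miR-26a per count of miR-26b.

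Such fixed ratios were rare in the tables. Among the 89 rows with at least 1000 counts in every library there were 3916 pairs, and 4 of them had a log2 ratio with an SD below 0.01. These were miR-26a with miR-26c, let-7b with miR-3596, miR-22-3p with miR-3600 and miR-199a-3p with miR-3604. The ratio was 1 for let-7b and miR-3596, close to 1 for miR-22-3p and miR-3600, and 1.02 for miR-199a-3p and miR-3604, so miR-26a and miR-26c were the pair with a ratio of 2. In the RefSeq table MIR3596 overlapped MIRLET7B, MIR3600 overlapped MIR22, and MIR3604-1 and MIR3604-2 overlapped MIR199A-2 and MIR199B. How reads shared by such rows were assigned is not given in the sources used here.

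The family was among the most abundant in the mammary gland. By count, miR-26a ranked between place 2 and place 6 of all miRNAs in a library, miR-26c between place 3 and place 10 and miR-26b between place 15 and place 21. The highest row was miR-143 in all 22 libraries. Together the 3 rows held 9.62% ± 1.07 (SD, n = 5) of the counts of a library in HOLS CONT, 10.2% ± 0.84 (SD, n = 5) in HOLS REST, 10.3% ± 3.38 (SD, n = 6) in MONT CONT and 12.3% ± 4.05 (SD, n = 6) in MONT REST. These shares count the reads of miR-26a and miR-26c in both rows. The ranks and shares of both rows rest on how shared reads were assigned, which is not given. On its own miR-26a held from 4.72% of a library, in MONT CONT, to 12.6%, in MONT REST, and miR-26b held from 0.550% to 1.19%.

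In HOLS CONT miR-26a was at 571532 normalized counts in cow 1155, 637074 in cow 1165, 501832 in cow 2182, 718750 in cow 8200 and 737043 in cow 9195. In HOLS REST the same cows had 771041, 942928, 598648, 693840 and 763543 normalized counts, in this order. The REST libraries of 3 cows lay above all CONT libraries, the ranges overlapped, and cow 8200 was the one whose level was lower at REST than at CONT. The MONT CONT libraries had a median of 591779 normalized counts of miR-26a (lowest 511992, highest 1357982), and the MONT REST libraries had a median of 782924 (lowest 606465, highest 1137189). The highest of all 22 values, 1357982, came from the CONT library of cow 9615, and the other MONT CONT libraries lay between 511992 and 639968. Cow 9615 was also highest in MONT REST, followed by cow 1652 at 1129927.

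The group means of miR-26a rose in the order HOLS CONT, MONT CONT, HOLS REST and MONT REST. They were 633246 ± 98967 (SD, n = 5), 705151 ± 324243 (SD, n = 6), 754000 ± 126322 (SD, n = 5) and 849596 ± 238164 (SD, n = 6) normalized counts. Each step in this order was smaller than the SD of either neighbour. Without cow 9615 the mean of MONT CONT was 574584 ± 59672 (SD, n = 5), which put it below HOLS CONT, and that of MONT REST was 792078 ± 214686 (SD, n = 5). The level of miR-26c followed that of miR-26a in each library, with group means of 316619, 352573, 376996 and 424795 normalized counts in the same order of groups.

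In HOLS CONT miR-26b was at 74776 normalized counts in cow 1155, 85597 in cow 1165, 86231 in cow 2182, 74425 in cow 8200 and 106989 in cow 9195. At REST the level was 149699 in cow 1155, 110232 in cow 1165, 120414 in cow 2182, 99290 in cow 8200 and 133826 in cow 9195. All 5 HOLS cows were higher at REST, 4 of the REST libraries lay above all CONT libraries, and the ranges overlapped through cow 9195 at CONT. For the 6 MONT cows the median of miR-26b was 75213 normalized counts at CONT (lowest 57809, highest 87560) and 87121 at REST (lowest 62471, highest 126214). The MONT ranges overlapped, and 2 MONT REST libraries, those of cows 9615 and 1640, lay above all MONT CONT libraries.

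The group means of miR-26b followed another order, MONT CONT, HOLS CONT, MONT REST and HOLS REST. They were 74338 ± 10395 (SD, n = 6), 85603 ± 13228 (SD, n = 5), 90746 ± 21259 (SD, n = 6) and 122692 ± 19758 (SD, n = 5) normalized counts. The steps between the first 3 were smaller than the larger SD of each pair, and HOLS REST stood 1.35 times above MONT REST. Without cow 9615 the means of MONT CONT and MONT REST were 75462 ± 11207 and 83653 ± 13694 (SD, n = 5 each), so MONT REST then came below HOLS CONT. The lowest HOLS REST library, at 99290, was above the highest MONT CONT library, at 87560, and the ranges of every other pair of groups overlapped. Both breed and period differ between HOLS REST and MONT CONT, and this pair was not tested. How many of all miRNAs had ranges without overlap in this pair was not counted, so the gap is not shown to be particular to miR-26b. In MONT CONT the coefficient of variation was 46.0% for miR-26a and 14.0% for miR-26b, and without cow 9615 it was 10.4% and 14.9%.

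**Figure D2:**
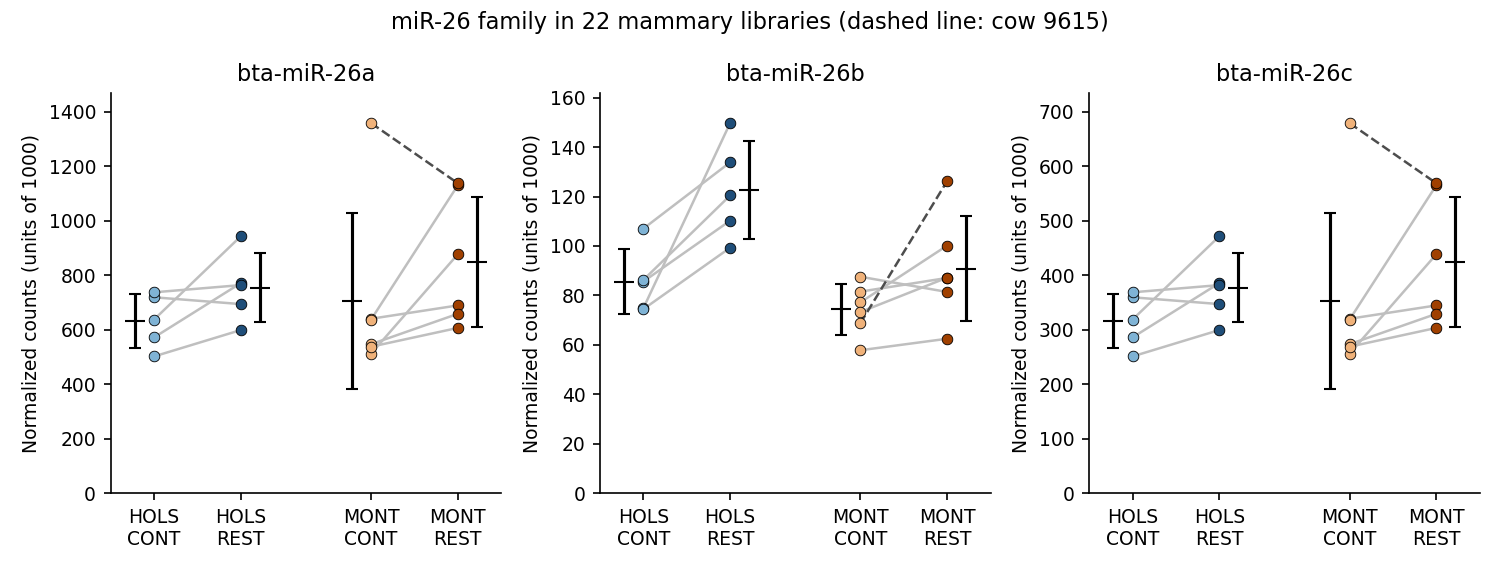
Normalized counts, in units of 1000, of bta-miR-26a, bta-miR-26b and bta-miR-26c in each library, by breed and period, each panel with an axis of its own from 0. Points are libraries, lines join the libraries of a cow (dashed for cow 9615), and bars beside the points show the mean and SD; miR-26b is higher at REST in 5 of 5 HOLS cows, and miR-26a has its highest value, 1357982, in the MONT CONT library of cow 9615.

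The first comparison asked whether feed restriction changed the miRNAs of the gland within HOLS. The level of miR-26b was higher at REST by 0.51 on the log2 scale (SE 0.14), with a change per cow of 0.52 ± 0.28 (SD, n = 5), from 0.32 to 1.0. This did not pass the threshold of an adjusted p of 0.05 in the quasi-likelihood test of edgeR, adjusted after Benjamini-Hochberg over the 374 miRNAs tested (adjusted p = 0.0734). With the cow as a block, which uses that both libraries come from the same animal, miR-26b rose by 0.51 (SE 0.12, edgeR adjusted p = 0.0141). DESeq2 without the block also called it (0.51, adjusted p = 0.0172). Without the block edgeR called 9 of 374 miRNAs (2.41%), all lower at REST and none of the family, and with the block it called 61 of 374 (16.3%), of which 30 were higher (8.02%) and 31 lower (8.29%), with miR-26b among the higher ones. By its p miR-26b was at place 19 of 374 without the block and at place 22 with it. Leaving out cow 1155, which had the largest change, lowered the difference to 0.37 (edgeR adjusted p = 0.404), and leaving out any other cow gave 0.50 to 0.54.

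The difference of miR-26a in HOLS was smaller, 0.23 on the log2 scale (SE 0.14, edgeR adjusted p = 0.307), and was not called with the block either (0.24, edgeR adjusted p = 0.150). The change per cow was 0.25 ± 0.26 (SD, n = 5), above 0 in 4 of 5 cows. Without cow 1165 the difference was 0.13 (edgeR adjusted p = 0.679), and with scaling by library size only it was 0.067 (adjusted p = 0.752), where the median of all miRNAs was -0.15. The largest change of miR-26a was 0.57 in cow 1165, whereas that of miR-26b was 1.0 in cow 1155, so the members did not change most in the same animal. For miR-26c edgeR gave 0.23 (adjusted p = 0.307).

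Markers of other cell types moved in the same libraries. In bulk tissue, more cells of a type and more RNA per cell cannot be told apart. The calls below stand beside 8.02% of all miRNAs tested higher and 8.29% lower with the block. Without the block 2.41% of all were called. Of the 7 miRNAs listed for smooth muscle and stroma all 7 were tested and had a positive difference in HOLS, with a median of 0.31 beside 0.02 over all miRNAs tested. None of them passed without the block and 2 rose with it, among them miR-143 at 0.45 (adjusted p = 0.0287 with the block in edgeR). Their summed level was 1665564 to 2543008 normalized counts in HOLS CONT and 2480645 to 3176545 in HOLS REST, and most of it was miR-143. Of the 7 leukocyte miRNAs 4 rose with the block and none without it, and their sum was 25770 to 41283 at CONT and 27166 to 65026 at REST. Both endothelial miRNAs, miR-126-3p and miR-126-5p, were higher by 0.32, with miR-126-3p called with the block and miR-126-5p not, with sums of 273690 to 361948 and 326521 to 483727. Of the 9 epithelial miRNAs 3 fell with the block, miR-200c among them (log2 difference -0.42 without the block), and 3 had a positive difference without it. The highest of this list, miR-141, had a log2 difference of 0.06 without the block (edgeR adjusted p = 0.923). The epithelial sums were 432157 to 542963 at CONT and 305123 to 667419 at REST, with means of 487524 and 486891. Of the 3 miRNAs of red blood cells miR-486 rose with the block (log2 difference 0.39 without it), with sums of 26089 to 43359 and 38170 to 49031, while miR-451 and miR-144 had differences of -0.12 and -0.09. The list for skeletal muscle had no call and sums of 426 to 1990 normalized counts over both periods. No listed marker was at 0 over a group, and the part of any of these lists in the rise of miR-26b was not tested.

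The same comparison in MONT gave no call for the family. The difference at REST was 0.28 (SE 0.25) for miR-26a and 0.27 (SE 0.17) for miR-26b on the log2 scale, with edgeR adjusted p of 0.556 and 0.437. With the cow as a block the values were 0.30 and 0.25 (edgeR adjusted p = 0.305 and 0.382). In MONT edgeR called 0 of 349 miRNAs (0%) both without and with the block, DESeq2 called 0, and 47 had an unadjusted p under 0.05 without and 52 with the block. The smooth muscle and stroma list had a median of 0.66 in MONT, positive in 7 of 7, and no call.

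In MONT cow 9615 the members went in opposite directions. The change per cow of miR-26a in MONT was 0.32 ± 0.42 (SD, n = 6), above 0 in 5 of 6 cows and -0.26 in cow 9615. That of miR-26b was 0.27 ± 0.34 (SD, n = 6), with the largest value, 0.88, in the same cow 9615 and the only one below 0, -0.11, in cow 1652. Cow 1652 in turn had the largest change of miR-26a, 0.83, and cow 2614 followed with 0.78. Without cow 9615 the difference was 0.44 for miR-26a (SE 0.20, edgeR adjusted p = 0.135) and 0.11 for miR-26b (SE 0.15, adjusted p = 0.642), and 46 of 358 miRNAs were then called, none of them of the family. Without cow 1652 the difference of miR-26a was 0.10 (SE 0.30, edgeR adjusted p = 0.915).

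The stroma markers were set beside miR-26a in the MONT libraries, and the libraries high in one were not always high in the other. Without miR-143, the sum of the other 6 miRNAs of smooth muscle and stroma was 35183 normalized counts in the CONT library of cow 9615 and 13335 to 21252 in the other MONT CONT libraries. In MONT REST this sum was highest in cow 1652, at 40127, and lowest in cow 9615, at 20803, whose miR-26a was the highest of that group. The leukocyte sum of cow 9615 at CONT, 94317, was also the highest of all libraries, and its epithelial sum was 232242, within the range of 221780 to 560876 of its group. In MONT REST the epithelial sums of cows 1652 and 2614 were 174597 and 174159, the lowest of all libraries. The part of these markers in the level of miR-26a was not tested.

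An interaction term of breed with period asked whether the breeds responded differently. The change in HOLS minus the change in MONT was -0.07 (SE 0.33) for miR-26a and 0.18 (SE 0.22) for miR-26b on the log2 scale, both with an edgeR adjusted p of 0.991. With the cow as a block these were -0.11 and 0.20 (edgeR adjusted p = 0.985 for both), and without cow 9615 and the block -0.27 and 0.33 (edgeR adjusted p = 0.787 and 0.620). In this test edgeR called 0 of 388 miRNAs (0%) without and 0 (0%) with the block, DESeq2 called 0, and 3 and 5 had an unadjusted p under 0.05 in edgeR. The rise of miR-26b in HOLS with the block and its lack of a call in MONT are thus not shown to differ. The sign for miR-26a turned when the duplicate row of miR-26c was taken out of the table (0.020).

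**Figure D3:**
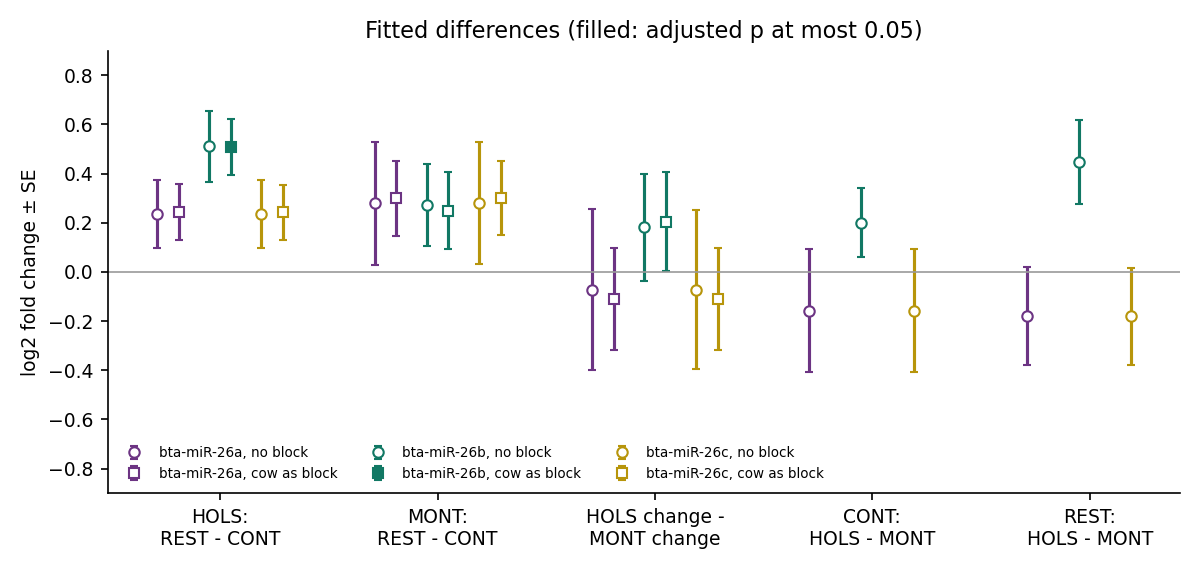
Fitted log2 fold changes with their SE for the 3 members in 5 comparisons, without a block (circles) and, where both periods enter, with the cow as a block (squares). The filled square is miR-26b in HOLS with the block (0.51, edgeR adjusted p = 0.0141), and no other fit shown passed the threshold.

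The breeds were compared within each period, where each cow enters once. The paper reports a smaller share of clean reads in MONT than in HOLS libraries, and the part of this in the breed differences was not tested. At CONT the difference HOLS minus MONT was -0.16 (SE 0.25, edgeR adjusted p = 0.735) for miR-26a and 0.20 (SE 0.14, adjusted p = 0.429) for miR-26b, and 2 of 360 miRNAs (0.556%) were called, both higher in HOLS and none of the family. Without cow 9615 the difference of miR-26a at CONT turned to 0.14 (edgeR adjusted p = 0.643). At REST the difference was -0.18 (SE 0.20, edgeR adjusted p = 0.552) for miR-26a and 0.45 (SE 0.17, adjusted p = 0.0857) for miR-26b, and 58 of 378 miRNAs (15.3%) were called, 21 higher in HOLS (5.56%), 37 lower (9.79%) and none of the family. Scaling by library size only gave 54 calls with 13 higher in HOLS. Without cow 9615 the difference of miR-26a at REST was -0.09 (edgeR adjusted p = 0.767), and miR-26b was higher in HOLS REST by 0.54 (SE 0.15, edgeR adjusted p = 0.0269), where 77 of 378 miRNAs were called.

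Markers differed between the breeds at REST as well, beside 5.56% of all miRNAs tested higher in HOLS and 9.79% lower. Of the 7 smooth muscle and stroma miRNAs 4 were lower in HOLS REST than in MONT REST, with a median of -0.94 beside -0.03 over all miRNAs tested. Of the 9 epithelial miRNAs 2 were higher, miR-141 by 1.06 and miR-200c by 0.99 (edgeR adjusted p = 0.0452 and 0.0403), and 1 was lower. The endothelial miR-126-3p was higher by 0.53 (edgeR adjusted p = 0.0301), and 1 of the 7 leukocyte miRNAs, miR-146b, was lower by 1.03 on the log2 scale (log2 difference -1.03, edgeR adjusted p = 0.0403). Their part in the level of miR-26b was not tested.

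The ratio of miR-26b to miR-26a within a library does not depend on how libraries are scaled. In HOLS CONT its log2 value was -2.93 in cow 1155, -2.90 in cow 1165, -2.54 in cow 2182, -3.27 in cow 8200 and -2.78 in cow 9195. In HOLS REST it was -2.36, -3.10, -2.31, -2.80 and -2.51 in the same cows. It was higher at REST in 4 of 5 HOLS cows, cow 1165 being the exception, and the ranges overlapped. For MONT the median was -2.92 at CONT (lowest -4.30, highest -2.82) and -3.08 at REST (lowest -3.81, highest -2.72). The 3 lowest values were those of cow 9615 at CONT and of cows 2614 and 1652 at REST.

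The mean log2 ratio was -2.89 ± 0.26 (SD, n = 5) in HOLS CONT, -2.62 ± 0.33 (SD, n = 5) in HOLS REST, -3.16 ± 0.57 (SD, n = 6) in MONT CONT and -3.21 ± 0.48 (SD, n = 6) in MONT REST. In other terms there were 7.39, 6.14, 8.97 and 9.27 counts of miR-26a per count of miR-26b, as geometric means. These numbers take the miR-26a row as it stands, and its scale rests on how shared reads were assigned. The ratio did not differ beyond its spread between REST and CONT. In HOLS the difference was 0.27 (two-sided exact permutation test, p = 0.198) and in MONT -0.05 (exact permutation test, p = 0.909), or -0.28 without cow 9615 (exact permutation test, p = 0.373). Paired by cow, the exact sign-flip test gave p = 0.125 in HOLS, where 5 cows cannot go below 0.0625, and p = 0.969 in MONT. Over the 11 cows of both breeds the mean change was 0.09 ± 0.57 (SD, n = 11), above 0 in 7 of 11 cows (exact paired permutation test, p = 0.587), and without cow 9615 it was -0.0089 (p = 0.961).

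Between the breeds the log2 ratio was higher in HOLS by 0.28 at CONT (exact permutation test, p = 0.424), or by 0.051 without cow 9615 (p = 0.738), and by 0.59 at REST (exact permutation test, p = 0.0498). Adjusted over the 5 tests of this ratio, the latter was 0.249 (Benjamini-Hochberg on the exact permutation p). At REST the groups overlapped, since 3 MONT libraries, at -2.98, -2.80 and -2.72, lay within the HOLS range of -3.10 to -2.31. Leaving out any one of 8 of the 11 cows (HOLS 1155, 2182, 8200 and 9195, MONT 1613, 1652, 2614 and 9615) moved the exact permutation p above 0.05, up to 0.114, with a difference of 0.47 to 0.64.

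**Figure D4:**
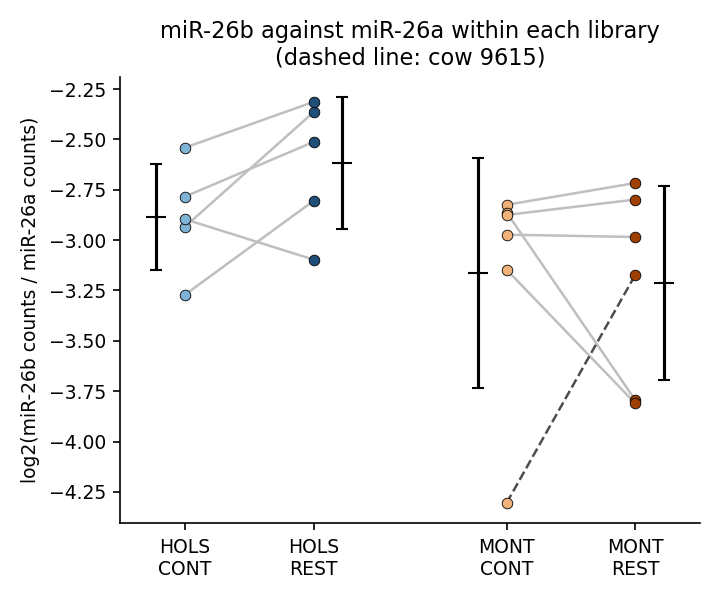
Log2 of the ratio of miR-26b to miR-26a counts in each library by breed and period. Lines join the libraries of a cow (dashed for cow 9615), and bars show the mean and SD; the MONT values spread from -4.30 to -2.72 and the HOLS values from -3.27 to -2.31.

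Across the 22 libraries the members did not vary together. The log2 normalized counts of miR-26a and miR-26b had a Pearson r of 0.18 (Spearman rho 0.28), and 0.08 (rho 0.06) after the group means were taken off. These correlations are a description, since the libraries are pairs from 11 cows and share the scaling of a common table.

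The miRNAs most like miR-26a by this measure were miR-874 (r = 0.78, rho 0.78), miR-127 (r = 0.77, rho 0.66) and miR-10174-3p (r = 0.77, rho 0.68). Without both libraries of cow 9615, which lay farthest from the median, r was 0.73, 0.70 and 0.62. With the group means taken off, miR-10174-3p (r = 0.82), miR-127 (r = 0.75) and miR-204 (r = 0.75) came first, and r was 0.73, 0.66 and 0.50 without this cow. The gene of miR-127 lies in an imprinted region with many miRNA genes. Its level was 75203 ± 11552 (SD, n = 5) normalized counts in HOLS CONT, 95033 ± 10758 (SD, n = 5) in HOLS REST, 106514 ± 55916 (SD, n = 6) in MONT CONT and 133569 ± 44427 (SD, n = 6) in MONT REST. Without cow 9615 the mean of miR-127 in MONT CONT was 86023 ± 27550 (SD, n = 5), below that of HOLS REST.

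Those most like miR-26b were miR-181b (r = 0.76, rho 0.71), miR-126-5p (r = 0.70, rho 0.74) and miR-185 (r = 0.69, rho 0.60). Without the libraries of cows 1155 and 9195 at HOLS REST, which lay farthest out, r was 0.71, 0.63 and 0.55. The group means of miR-181b, a regulator of lymphocyte and vascular responses, were 5737 ± 1400 (SD, n = 6) in MONT CONT, 7224 ± 1119 (SD, n = 5) in HOLS CONT, 7266 ± 790 (SD, n = 6) in MONT REST and 9951 ± 1286 (SD, n = 5) in HOLS REST. With the group means taken off, miR-126-5p (r = 0.61), miR-151-3p (r = 0.59) and miR-2332 (r = 0.58) came first, and without the REST libraries of MONT cows 2614 and 9615 r was 0.42, 0.61 and 0.43. The row of miR-2332 had means of 11.1 to 21.4 normalized counts, so its r rests on few counts. The miRNAs named for miR-26a and for miR-26b had no member in common, which with so few named for each says little.

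**Figure D5:**
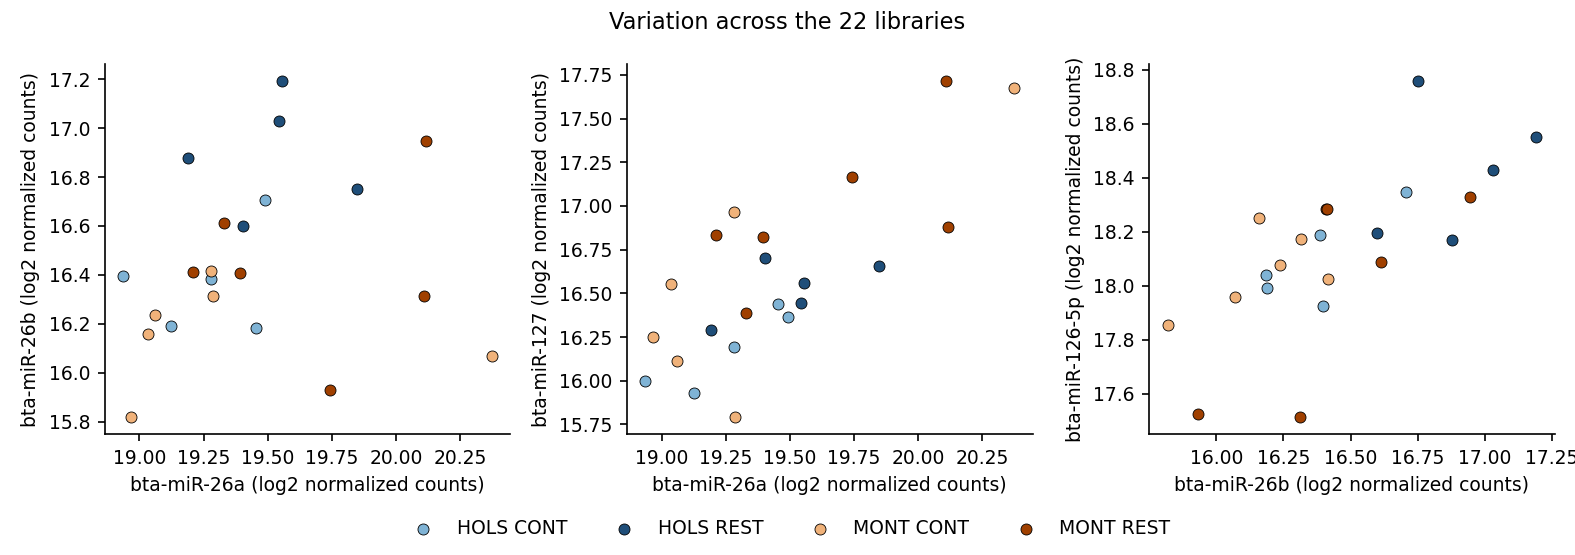
Log2 normalized counts of miR-26a against miR-26b (left), of miR-26a against miR-127 (middle) and of miR-26b against miR-126-5p (right), with 1 point per library and colours for the groups. The left panel shows no common trend (r = 0.18), and r was 0.77 and 0.70 in the other panels.

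EZH2, held to be a target of miR-26a and miR-26b, is also a target of miR-101 and other miRNAs. Of 7 such miRNAs 6 were listed and 3 passed the filter in HOLS, none of them called with or without the block, which with 3 members says little about the list. The most abundant, miR-101, which acts on EZH2 through sites of its own, differed by 0.25 in HOLS and by 0.16 in MONT (edgeR adjusted p = 0.258 and 0.531). Between the breeds at REST 1 of the 3 was lower in HOLS, miR-214, with a log2 difference of -1.17 (edgeR adjusted p = 0.0148, beside 9.79% of all miRNAs lower), which is also counted among the stroma markers.

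The let-7 family, whose maturation is tied to the protein LIN28 and which is abundant in differentiated tissue, served as another large family of high counts. All 9 members of the list were tested and none was called in either breed without the block. The list leaves out the row let-7a-3p, which was called in HOLS without the block. Its log2 difference was -0.75 in HOLS (edgeR adjusted p = 0.0483) and -0.72 in MONT (edgeR adjusted p = 0.314). With the block 1 of 9 rose in HOLS, beside 8.02% of all miRNAs tested, and at REST 1 of 9 was lower in HOLS than in MONT, beside 9.79% of all, so both counts were near the share over all miRNAs. The median difference was 0.07 in both breeds, and let-7a-5p and let-7f differed by 0.07 each in HOLS (edgeR adjusted p = 0.852 and 0.845). The summed level of the let-7 family was 536071 ± 64414 (SD, n = 5) normalized counts in HOLS CONT and 571062 ± 81627 (SD, n = 5) in HOLS REST. The mean of the miR-26a row was higher than this sum in both HOLS groups. The row of miR-26c, the same measurement on another scale, had means of 316619 and 376996, below the sum. The order thus rests on how shared reads were assigned, which is not given.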

How the data were processed

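Small RNA was sequenced by the authors from TruSeq libraries (bcl2fastq 2.17.1.14). They trimmed adapters with the FASTX-Toolkit, quantified reads with ncPRO-seq and identified miRNAs with miRDeep2 and miRBase. The deposited counts are whole, unnormalized reads per miRNA. The authors' normalized values (DESeq2 1.18.1), means, fold changes and p-values in the same tables were not used.

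The raw columns of both tables were joined by miRNA name, and 0 columns of samples could not be matched. Differences were tested with edgeR 4.0.16 in R 4.3.3 (TMM, filterByExpr with a minimum count of 10, quasi-likelihood F test, Benjamini-Hochberg adjustment over all miRNAs tested, threshold 0.05), without a block, as the study's methods name none. Levels and changes per cow used size factors of DESeq2 1.42.0 over the 22 libraries. Correlations, also those of deviations from the group means, used log2 normalized counts with a pseudocount of 1. Ratios were compared by exact permutation tests over libraries (scipy 1.17.1 as a check). P-values of the breed comparisons measure the spread between cows. Those of REST against CONT without a block take both libraries of a cow as independent. With the block or the sign-flip test they measure the spread of the changes within cows. Each cow gave 1 biopsy per period.

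The labels give the same cow for both libraries of a number. Deviations from the group means correlated with r from 0.24 to 0.50 in HOLS and with 0.40, 0.69, 0.62, 0.12, 0.49 and -0.20 in MONT cows 1613, 1640, 1652, 2614, 5663 and 9615, and results of the blocked fit stand beside those whose call it alters.

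The members and lists were chosen with earlier results of these data known. A further list of miRNAs is not reported here. Named are the 3 members, the 3 miRNAs most correlated with each (also with group means removed), the 2 most abundant miRNAs of a list where a result turns on them, and miR-143. Alternatives were DESeq2, other scalings, no filter, library sizes without miR-143, a table without miR-26c, the cow as a block and each cow left out. No miRNA sequence is printed, and coordinates are not given because the RefSeq table has another assembly.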

Additional observations from a re-analysis of the deposited data

Results flagged for a closer look

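In MONT CONT, miR-26a of cow 9615 stood apart at 1357982 normalized counts, beside 511992 to 639968 in the other 5 cows. The gap to the nearest of the others was 0.849 of the range of the group. The row of miR-26c, the same measurement, stood apart in the same library at 678985, beside 255995 to 319982. The log2 ratio of miR-26b to miR-26a of this library was -4.30, beside -3.15 to -2.82 in the others, with a gap of 0.782 of the range. In all, 16 sets of values (each member and the ratio in each group) were examined and 3 values were set apart, where chance gives about 1 in 20, or 0.8. All 3 come from 1 library and from the same count of miR-26a, since miR-26b of this library, 68716, was within the range of its group.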

How the results depend on the processing

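The call of miR-26b in HOLS depended on the model. Its difference was 0.51 with the cow as a replicate block (edgeR adjusted p = 0.0141), 0.51 with DESeq2 (adjusted p = 0.0172) and 0.50 with both (4.92e-04), all past the threshold, and 0.34 to 0.51 without a call under the other 5 settings (edgeR adjusted p from 0.0548 to 0.156). The fits that join the block with DESeq2, or with the removal of cow 9615, were chosen after seeing the data. The block changed no other call of a member. HOLS calls over all miRNAs went from 9 to 61 with the block, 27 with DESeq2, 69 with both, 20 with library size only and 5 without a filter, and to 3 to 14 when a cow was left out. MONT calls went from 0 to 1 with the block in DESeq2, 0 to 46 when a cow was left out, and 140 with the block without cow 9615, where the interaction had 23 and where miR-26a in MONT differed by 0.39 (edgeR adjusted p = 0.0642).

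The interaction of miR-26a turned to 0.020 without the row of miR-26c, and that of miR-26a and miR-26c ranged from -0.27 to 0.12 when a cow was left out. Calls between the breeds at CONT were 20 with DESeq2, 29 with all 4 groups in the fit, 1 with library size only, 0 without miR-143 and 0 to 6 with a cow left out, and miR-26a and miR-26c ranged from -0.23 to 0.14. At REST calls were 89 with DESeq2 and 38 to 77 with a cow left out, and miR-26b ranged from 0.32 to 0.54. Without a cow the log2 ratio of miR-26b to miR-26a changed by -0.28 to 0.13 in MONT and by -0.0089 (without cow 9615) to 0.20 over both breeds, and it differed between the breeds at CONT by 0.051 (without cow 9615) to 0.38 and at REST by 0.47 to 0.71 (exact permutation p from 0.0333 to 0.114). Without a call in any setting, miR-26a differed in HOLS by 0.13 to 0.30 with a cow left out and by 0.067 with library size only, and in MONT by 0.10 to 0.44 with a cow left out. The causes were not tested. Scaling by library size only moved the median of all miRNAs from 0.02 to -0.15 in HOLS and from -0.03 to -0.15 between the breeds at REST.

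Depth did not limit the members, whose counting error was at most 0.505%. The limits are 5 and 6 cows per breed, 1 library per biopsy, a further HOLS cow not analysed here, and reads shared by miR-26a and miR-26c. A further limit is library quality, which the paper reports as lower in MONT. The paper proposes it among possible reasons for the lack of significant miRNAs in that breed, which was not tested here.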
